A study of Mus musculus with 4 samples.

Results

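The cytotoxic granule and NK receptor genes are 10 of the 56748 genes in the deposited count table, namely Gzma, Gzmb, Gzmk, Prf1, Nkg7, Klrd1, Klrk1, Ncr1, Eomes and Ccl5. They were found by gene symbol, and they were put together with the difference between treated and saline samples known. The members were thus selected on their counts in these 4 samples, and their fold changes are given here as a description without a test. Bulk RNA sequencing was available for 2 saline and 2 ADC/cmLumiOpto samples of lung metastases of 4T1, a mouse triple-negative breast cancer line. The female BALB/cJ mice of all groups were 7 weeks old when 2000000 luciferase-expressing 4T1-FLuc cells entered the tail vein, and the samples were taken after 3 weeks of treatment. The treated mice received an antibody-drug conjugate (ADC) that links an antibody against CD276 to the microtubule poison mertansine (DM1), together with cmLumiOpto, a mitochondria-depolarizing gene therapy driven by the luminescent substrate ViviRen (2 mg/kg in the methods). The labels name 16 mg/kg of ADC, the term Olap and a PBS control, although the titles of the control samples name saline. The methods name saline and 8 mg/kg, and the groups were kept as the sample titles name them. The labels describe tumor cells, the methods lung tissue, and markers of leukocytes and of lung epithelium were detected in every sample, as shown further on. The methods give 4 samples per group and 2 per group were analyzed here. The p values therefore set group differences against a spread estimated from so few samples, with information shared across genes.

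Cytotoxic lymphocytes, chiefly natural killer (NK) cells and CD8 T cells, kill target cells by releasing granules that hold the pore-forming protein perforin (Prf1) and the serine proteases called granzymes. Release follows signals from surface receptors such as NKG2D (Klrk1), NKp46 (Ncr1) and CD94 (Klrd1) or the T cell receptor. The T-box factor Eomes supports this gene program, and the chemokine Ccl5 is secreted by the same cells and draws further leukocytes.

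The stretch of coding sequence around the catalytic serine of the 3 granzymes is shown because these genes are related and reads must tell them apart (GENCODE transcripts of GRCm38, 27 bases, sense strand, serine codon in capitals). The codon starts at base 631 of the coding sequence in Gzma, 607 in Gzmb and 637 in Gzmk, counted from the A of the start codon.
Gzma: tcctgcaatggggatTCTggcagccct
Gzmb: tcctttcggggggatTCTggaggcccg
Gzmk: tcctgcaagggtgacTCTggtggccct
Gzma and Gzmk each matched Gzmb at 19 of the 27 bases. In whole transcripts, 0% of the 50-base words of the 3 genes were found in another gene's transcripts, so reads of this length separate them from each other.

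Promoter sequence, from RefSeq (GRCm38.p6), was matched by symbol for 8 of the 10 genes and was not used for Klrd1 and Ccl5. The windows of 250 bases before the start were searched on both strands for the letters TGTGGTT, bound by RUNX factors, and GGTGTGA, bound by T-box factors such as Eomes. The RUNX letters stood in the promoters of 4 of the 8 genes and in 4.40% of all 32851 promoter windows, and the T-box letters in 2 of the 8 genes and in 3.33% of all windows. A gene was counted once if any of its windows matched, and a gene such as Ncr1 has more than 1 window. The counts of genes and the shares of windows are therefore not directly comparable. The matches are shown with up to 20 bases on either side, in the direction of the gene, with the motif in capitals (the Gzma match is on the opposite strand).
Gzma RUNX, chr13:113101006-113101052, minus strand: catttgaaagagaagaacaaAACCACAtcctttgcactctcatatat
Gzmb RUNX, chr14:56262342-56262388, minus strand: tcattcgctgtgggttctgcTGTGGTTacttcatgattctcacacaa
Klrk1 RUNX, chr6:129623967-129624013, minus strand: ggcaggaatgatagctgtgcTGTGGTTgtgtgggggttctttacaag
Ncr1 RUNX, chr7:4337519-4337565, plus strand: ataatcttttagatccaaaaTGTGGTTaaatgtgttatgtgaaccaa
Gzmk T-box, chr13:113181014-113181060, minus strand: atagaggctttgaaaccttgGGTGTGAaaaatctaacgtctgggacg
Nkg7 T-box, chr7:43437105-43437137, plus strand: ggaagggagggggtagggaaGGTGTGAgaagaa
No RUNX and T-box match overlapped, and a match is a description of the letters, not of a bound site. The AP-1 letters TGANTCA were found in Gzmb (6.75% of all windows) and the STAT letters TTCNNNGAA in Nkg7 (7.02% of all windows).

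Total counts per sample lay between 15263375 and 19675436. Values are given as raw counts, as CPM (counts scaled to the library size after TMM normalization) for comparison between samples, and as TPM (counts scaled to gene length and to the library) for comparison between genes. A floor of 3 counts corresponds to between 0.146 and 0.202 CPM and covers counting error only. Of the 56748 genes, 15320 passed the expression filter and were tested, all 10 cytotoxic genes among them, although saline replicate 2 alone had under 3 counts of Gzmk and Ncr1. Across the table, 0 genes passed an adjusted p of 0.05 in the quasi-likelihood test of edgeR (0.0% of the genes tested), while 1690 genes (11.0%) were higher and 1863 (12.2%) lower at an unadjusted p under 0.05. The edgeR exact test called 1170 genes and DESeq2 called 1332 at an adjusted p under 0.05. The share of higher genes among the unadjusted calls was 47.6% with TMM and 60.6% with upper-quartile normalization, which moved the median log2 fold change of all genes from 0.028 to 0.11.

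Of the 10 genes, 9 had a log2 fold change above 0 (52.0% of all tested genes did), and the median was 1.07 against 0.028 for all tested genes. In 4 of them (Gzma, Gzmb, Gzmk and Klrd1) the CPM of both treated samples exceeded that of both saline samples, an arrangement seen in 28.1% of all tested genes. Prf1 showed the opposite arrangement, seen in 28.8% of all genes. For Nkg7, Klrk1, Ncr1, Eomes and Ccl5 the groups overlapped. Since this contrast chose the genes, nothing is read from these shares. In bulk RNA, fewer cells of a type and less RNA per cell cannot be told apart.

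**Figure D1:**
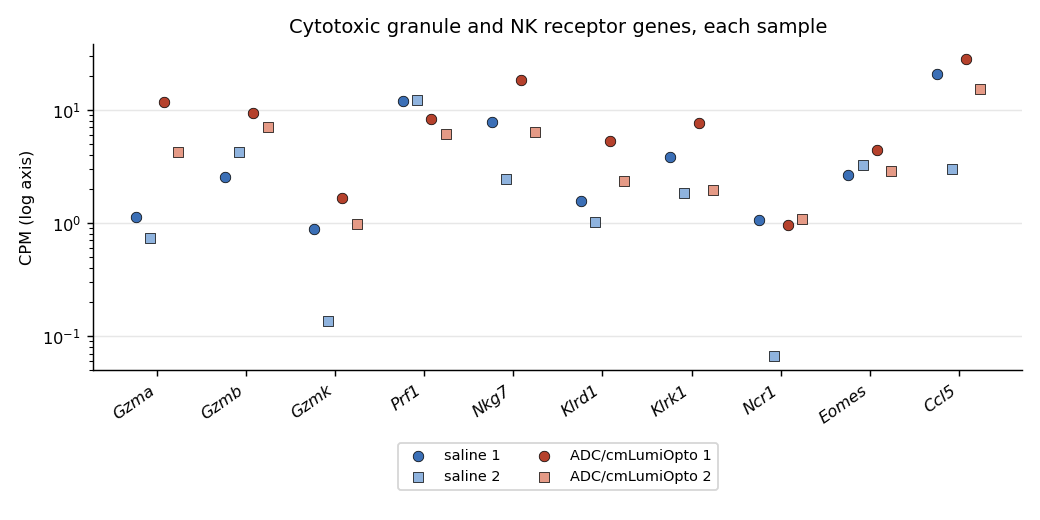
Level of the 10 genes in each sample, in CPM on a log axis, with saline samples in blue, ADC/cmLumiOpto samples in red, circles for replicate 1 and squares for replicate 2. Gzma, Gzmb, Gzmk and Klrd1 have both red points above both blue points, Prf1 has both below, and the lowest points are those of Ncr1 and Gzmk in saline replicate 2.

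Gene positions are those of the deposited table. The submitters' processing notes name the build mm39 and the methods name GRCm38, and the positions of all 10 genes differed from GRCm38, the build of the sequences above.

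Gzma, a granule protease with tryptase activity (ENSMUSG00000023132, chr13:113230359-113237515, minus strand), had 18 and 11 counts under saline and 207 and 87 under ADC/cmLumiOpto. Both treated samples were above both saline samples, and treated replicate 1 was 2.77 times as high as treated replicate 2 in CPM. The mean was 0.933 ± 0.271 CPM (SD, n = 2) under saline and 7.99 ± 5.30 CPM (SD, n = 2) under ADC/cmLumiOpto. Its log2 fold change was 3.08 (standard error 0.61), the highest of the 10 genes, and ranged from 2.17 to 3.63 when single samples were dropped.

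Gzmb, the granzyme that cleaves caspases in the target cell (ENSMUSG00000015437, chr14:56496295-56499717, minus strand), had 41 and 63 counts under saline and 165 and 145 under ADC/cmLumiOpto. The groups were separate, at 3.40 ± 1.19 CPM (SD, n = 2) and 8.21 ± 1.61 CPM (SD, n = 2). Its log2 fold change was 1.27 (standard error 0.39), between 0.94 and 1.68 with a sample left out.

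Gzmk, a neighbor of Gzma at a distance of 70.6 kb (ENSMUSG00000042385, chr13:113308142-113362442, minus strand), encodes another granule protease and had 14 and 2 counts under saline and 29 and 20 under ADC/cmLumiOpto. Saline replicate 2 was under the floor of 3 counts, below the other 3 samples. Treatment over saline gave a log2 fold change of 1.34 (standard error 0.84), 3.20 without saline replicate 1 and 0.58 without saline replicate 2. The listed span of Gzmk overlaps Esm1 on the other strand, which had between 56 and 157 counts, and whether reads were counted by strand is not given in the sources used here.

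Prf1, the pore former through which granzymes reach the target cell (ENSMUSG00000037202, chr10:61133612-61140459, plus strand), had 189 and 180 counts under saline and 145 and 126 under ADC/cmLumiOpto. It was the one gene of the 10 that was lower after treatment, with 7.18 ± 1.47 CPM (SD, n = 2) against 12.0 ± 0.224 CPM (SD, n = 2) under saline. The fitted log2 fold change was -0.74 (standard error 0.29) and kept its sign with every sample left out, between -0.96 and -0.55, and under every normalization tried.

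Nkg7, a membrane protein of the cytotoxic granule (ENSMUSG00000004612, chr7:43086497-43087673, plus strand), had 124 and 36 counts under saline and 323 and 130 under ADC/cmLumiOpto. Treated replicate 1 stood above all other samples, while treated replicate 2 was below saline replicate 1 in CPM (6.34 against 7.75). On the log2 scale the fold change was 1.27 (standard error 0.67), 0.31 without treated replicate 1 and 2.33 without saline replicate 1.

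**Figure D2:**
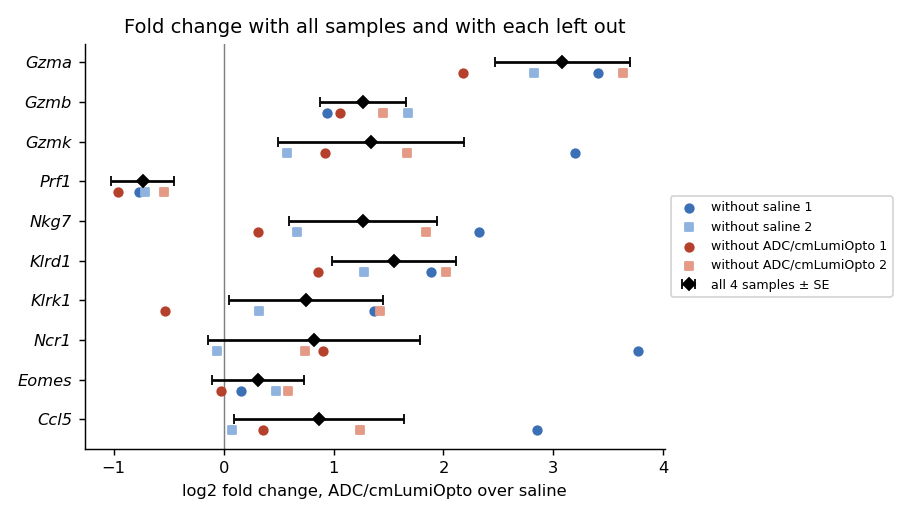
Log2 fold change of the 10 genes, ADC/cmLumiOpto over saline, with black diamonds and bars for all 4 samples (± standard error) and colored points for the value with 1 sample left out. Gzma, Gzmb, Gzmk, Klrd1, Nkg7 and Ccl5 stay above 0 at every point and Prf1 below, whereas Klrk1, Ncr1 and Eomes cross 0.

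Klrd1 encodes CD94, the chain that pairs with NKG2 proteins to read the nonclassical class I molecule Qa-1 (ENSMUSG00000030165, chr6:129568745-129575738, plus strand), and had 25 and 15 counts under saline and 93 and 48 under ADC/cmLumiOpto. Both treated samples were above both saline samples, at 1.29 ± 0.390 CPM and 3.81 ± 2.07 CPM (SD, n = 2 each). Its log2 fold change was 1.55 (standard error 0.56), between 0.86 and 2.02 with a sample left out.

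Klrk1 encodes the activating receptor NKG2D, lies 11.5 kb from Klrd1 (ENSMUSG00000030149, chr6:129587286-129600827, minus strand) and had 61 and 27 counts under saline and 134 and 40 under ADC/cmLumiOpto. Replicate 1 was higher than replicate 2 in both groups, by 2.10 times in CPM in the saline group and 3.89 times in the treated group. The log2 fold change of 0.75 (standard error 0.70) became -0.53 without treated replicate 1.

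Ncr1 encodes NKp46, the receptor most restricted to NK cells among these genes (ENSMUSG00000062524, chr7:4340723-4348163, plus strand), and had 17 and 1 counts under saline and 17 and 22 under ADC/cmLumiOpto. A single saline sample with 1 count set the difference, since the other 3 samples lay between 0.963 and 1.07 CPM. The log2 fold change of 0.82 (standard error 0.96) was -0.058 without saline replicate 2 and 3.77 without saline replicate 1.

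Eomes, the T-box transcription factor of NK cells and effector CD8 T cells (ENSMUSG00000032446, chr9:118307280-118315200, plus strand), had 42 and 48 counts under saline and 78 and 59 under ADC/cmLumiOpto. Treated replicate 2 lay between the saline samples in CPM, and the log2 fold change was 0.31 (standard error 0.42), or -0.024 without treated replicate 1. The annotated lncRNA Gm33460 overlaps Eomes on the other strand and had between 7 and 11 counts.

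Ccl5, a chemokine of T and NK cells that other leukocytes also make (ENSMUSG00000035042, chr11:83416604-83421344, minus strand), had 330 and 44 counts under saline and 496 and 311 under ADC/cmLumiOpto. Saline replicate 2 stood apart, 6.96 times below saline replicate 1 in CPM, and saline replicate 1 was above treated replicate 2. The log2 fold change of 0.87 (standard error 0.77) was 0.072 without saline replicate 2 and 2.85 without saline replicate 1.

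Per length, Ccl5 had the highest level in both groups, at 37.6 ± 39.7 TPM (SD, n = 2) under saline and 59.2 ± 20.8 TPM (SD, n = 2) after treatment. In the saline group the order of mean TPM was Ccl5, Nkg7, Prf1, Gzmb, Klrd1, Gzma, Eomes, Klrk1, Ncr1 and Gzmk, and neighbors were more than their SDs apart only between Prf1 and Gzmb, Gzmb and Klrd1, and Eomes and Klrk1. After treatment the order was Ccl5, Nkg7, Gzma, Gzmb, Klrd1, Prf1, Gzmk, Eomes, Ncr1 and Klrk1, with such gaps only between Gzmb and Klrd1 and between Prf1 and Gzmk. Perforin transcripts stood at 14.2 ± 0.329 TPM beside 2.84 ± 0.814 TPM of Gzma in the saline group, and at 7.36 ± 0.936 TPM beside 20.6 ± 12.4 TPM of Gzma in the treated group (SD, n = 2 each).

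The other granzyme genes were compared with the members because they share the granule. Gzmc, Gzmd, Gzme, Gzmf and Gzmg, neighbors of Gzmb on chromosome 14, summed to 109 and 370 counts under saline and 87 and 708 under ADC/cmLumiOpto. Their sum was highest in replicate 2 of each group, the reverse of Gzma and Gzmk, and the groups overlapped. Between 4.14% and 21.9% of the 50-base words of these 5 genes were found in another gene's transcripts, so counts among them are uncertain. Gzmm, on chromosome 10, had between 9 and 15 counts in each sample, and Gzmn was listed at 0 in all 4.

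**Figure D3:**
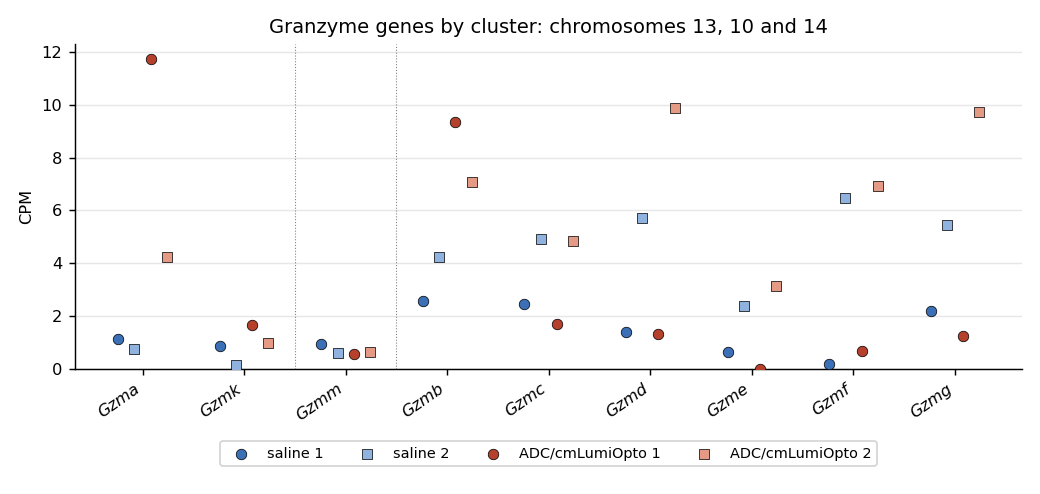
CPM of the granzyme genes in each sample, ordered by chromosome (13, 10 and 14, separated by dotted lines), with saline in blue, ADC/cmLumiOpto in red, circles for replicate 1 and squares for replicate 2. Gzma, Gzmk and Gzmb are highest in treated samples, whereas Gzmc to Gzmg are higher in the squares of both colors than in the circles.

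Direct partners of the 10 genes (adaptors, paired chains, inhibitors, ligands and receptors) were 29 genes, 25 of them in the table and 20 tested. At an unadjusted p under 0.05, 7 were higher (35%, against 11.0% of all tested genes) and 1 was lower (5%, against 12.2%) after treatment, 0 passed the adjusted threshold of 0.05 by the quasi-likelihood method in edgeR, and the median log2 fold change was 0.73. Klrc1, the inhibitory NKG2A chain that pairs with CD94, had 29 and 15 counts under saline and 74 and 54 under ADC/cmLumiOpto (log2 fold change 1.26, adjusted p = 0.208 in edgeR). Klrc2, the activating counterpart, had 13 and 11 counts against 35 and 17 (log2 fold change 0.84, adjusted p = 0.458 in edgeR). H2-T23, which encodes their ligand Qa-1, had 3950 and 2486 counts against 8027 and 5494 (log2 fold change 0.80, adjusted p = 0.186 in edgeR).

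NKG2D signals through the adaptors DAP10 (Hcst) and DAP12 (Tyrobp). Hcst had 51 and 37 counts under saline and 77 and 244 under ADC/cmLumiOpto (log2 fold change 1.52, adjusted p = 0.170 in edgeR), a difference carried mostly by treated replicate 2. Tyrobp, which myeloid cells use as well, had 1169 and 899 counts against 2249 and 3017 (log2 fold change 1.04, adjusted p = 0.116 in edgeR). Among the NKG2D ligands, Ulbp1 had 600 and 1179 counts against 496 and 732 (log2 fold change -0.87, adjusted p = 0.204 in edgeR), and Raet1e had between 23 and 65 counts with overlapping groups. Raet1d and H60b had too few counts to test, with at most 14, and H60c was listed at 0. Of the adaptors of NKp46, Fcer1g had a log2 fold change of 0.44 and Cd247 of 0.68, and neither was below an unadjusted p of 0.05.

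The inhibitor of granzyme B, Serpinb9, had 775 and 660 counts under saline and 1842 and 1276 under ADC/cmLumiOpto (log2 fold change 0.84, adjusted p = 0.144 in edgeR), and the related serpin gene Serpinb6b had 405 and 337 against 968 and 693 (log2 fold change 0.88, adjusted p = 0.138 in edgeR). The proteoglycan core of the granule, Srgn, had a log2 fold change of -0.062, which turned to 0.019 with upper-quartile normalization. Ctsc, the protease that activates granzymes, and Calr, a calcium-binding chaperone that also binds perforin, had log2 fold changes of 0.46 and 0.13 with neither below an unadjusted p of 0.05. For the other T-box factor of these cells, Tbx21, the counts were 20 and 5 against 38 and 22 (log2 fold change 1.00, unadjusted p = 0.226 in edgeR). The interleukin 15 genes that act upstream had log2 fold changes of 0.47 for Il15, 0.15 for Il15ra and 0.14 for the receptor chain Il2rb, none below an unadjusted p of 0.05. Of the Ccl5 receptors, Ccr1 had 1470 and 872 counts against 2057 and 3201 (log2 fold change 0.86, adjusted p = 0.143 in edgeR), and Ccr3 had at most 3 counts.

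The wider pathway was read from 5 lists that hold 178 genes besides the 10, of which 172 were in the table and 141 were tested. The lists include direct partners described above, so their counts share genes with the partner counts. At an unadjusted p under 0.05, 26 were higher (18.4%, against 11.0% of all genes) and 6 lower (4.26%, against 12.2%), and the median log2 fold change was 0.50. By the quasi-likelihood method of edgeR 0 of the 141 reached an adjusted p under 0.05, while the exact test called 12 and DESeq2 called 19. The higher count moved with single samples, to 13 without saline replicate 2, 52 without saline replicate 1, 19 without treated replicate 1 and 39 without treated replicate 2.

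**Figure D4:**
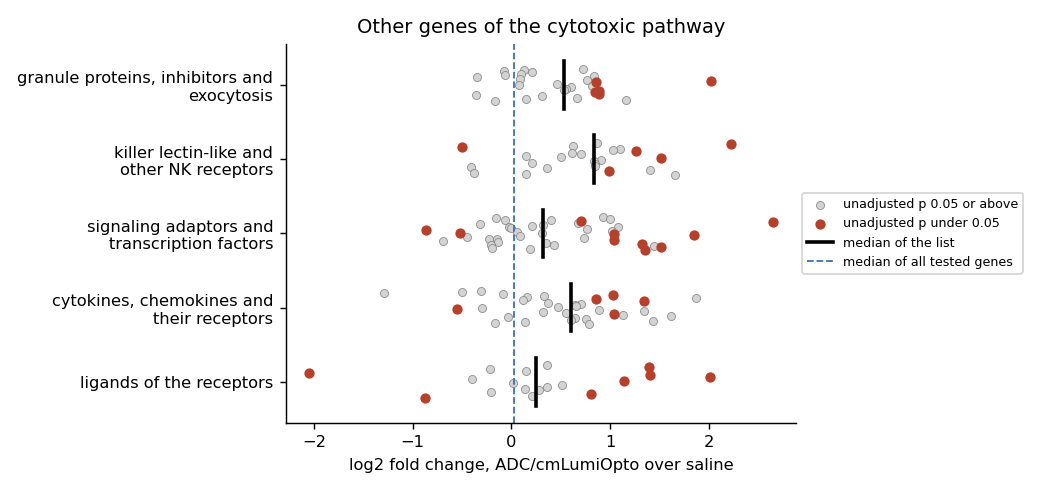
Log2 fold change, ADC/cmLumiOpto over saline, of the tested genes of each pathway list, in red where the unadjusted p is under 0.05, with a black bar at the list's median and a dashed line at the median of all tested genes. The 5 list medians lie between 0.25 and 0.84, to the right of the dashed line at 0.028.

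Among granule proteins, inhibitors and exocytosis genes, 5 of 27 tested were higher at an unadjusted p under 0.05 (18.5%, against 11.0% of all tested genes). At that threshold 0 were lower (against 12.2% of all tested genes), and the median was 0.53. Snap23 and Vamp8, membrane fusion proteins found in many cell types, had log2 fold changes of 0.85 and 0.89 (adjusted p = 0.116 each in edgeR). Ctsw, a protease of NK and CD8 T cells, had 47 and 16 counts against 194 and 112 (log2 fold change 2.02, adjusted p = 0.136 in edgeR).

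Of the killer lectin-like and other NK receptors, 24 of 40 could be tested, with a median of 0.84. At an unadjusted p under 0.05, 4 were higher (16.7%, against 11.0% of all tested genes) and 1 lower (4.17%, against 12.2%). Klra17, a Ly49 receptor known from plasmacytoid dendritic and myeloid cells, had 35 and 11 counts against 43 and 232 (log2 fold change 2.22, adjusted p = 0.184 in edgeR), and treated replicate 2 alone was high. Klrg2, another lectin-like receptor gene, had a log2 difference of 0.99 (adjusted p = 0.180 in edgeR), and Itga2, the integrin chain CD49b that NK cells and epithelial cells carry, of -0.50 (adjusted p = 0.153 in edgeR). The lectin-like receptor genes Klra1, Klra4, Klra6, Klra8, Klra10 and Klrh1 were listed at 0 in all samples, and mouse strains are known to differ in the gene content of this cluster.

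The 39 tested signaling adaptors and transcription factors had a median of 0.32. At an unadjusted p under 0.05, 8 were higher (20.5%, against 11.0% of all tested genes) and 2 lower (5.13%, against 12.2%). By p value, Tyrobp came first, followed by Sh2d1b1, the adaptor EAT-2 of SLAM receptors (71 and 59 counts against 217 and 189, log2 fold change 1.35, adjusted p = 0.122 in edgeR), and Lat2, an adaptor of B, NK and myeloid cells (log2 fold change 1.04, adjusted p = 0.126 in edgeR). Runx3, the RUNX factor of cytotoxic cells, had between 246 and 294 counts and a log2 fold change of -0.20 (unadjusted p = 0.388 in edgeR).

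The 33 tested cytokines, chemokines and their receptors had a median of 0.60. At an unadjusted p under 0.05, 4 were higher (12.1%, near the 11.0% of all tested genes) and 1 lower (3.03%, against 12.2%). Il18r1, a receptor chain for interleukin 18, had 352 and 164 counts against 863 and 718 (log2 fold change 1.34, adjusted p = 0.123 in edgeR). Tgfbr2, the receptor through which TGF-β restrains cytotoxic cells and which most tissues express, had 4948 and 4933 against 3929 and 4398 (log2 fold change -0.55, adjusted p = 0.127 in edgeR). Of 18 ligands of the receptors, 5 were higher (27.8%, against 11.0%) and 2 lower (11.1%, against 12.2%), with a median of 0.25. Clec2d, a ligand of inhibitory NKR-P1 receptors, had 204 and 187 counts against 879 and 1071 (log2 fold change 2.01, adjusted p = 0.116 in edgeR) and stayed between 1.97 and 2.04 with a sample left out. The death receptor gene Fas had 192 and 138 counts against 478 and 604 (log2 fold change 1.41, adjusted p = 0.116 in edgeR), and Cdh2, N-cadherin, a ligand of KLRG1, had 304 and 209 against 43 and 113 (log2 fold change -2.05, adjusted p = 0.116 in edgeR).

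The cell types that could carry these transcripts were examined through marker lists. The CPM of the 10 genes summed to 53.8 and 28.8 under saline and 95.6 and 48.2 under ADC/cmLumiOpto, so the sum of treated replicate 2 was below that of saline replicate 1. T cell markers (10 of 10 detected in every sample) summed to 37.9 and 11.6 CPM under saline and 81.3 and 39.6 under ADC/cmLumiOpto, with the same order of the samples except that treated replicate 2 was above saline replicate 1. Of the T cell markers, 3 of 10 (Cd3d, Cd3g and Trbc2) were higher at an unadjusted p under 0.05, against 11.0% of all tested genes. The CD8 markers Cd8a and Cd8b1 summed to 20.4 and 10.6 against 45.3 and 17.8 CPM, in the same order of samples as the 10 genes. The CD4 T cell list (9.13 and 1.62 against 9.63 and 3.17 CPM) and the plasmacytoid dendritic cell list (218 and 161 against 408 and 194 CPM) had that order too. Nearly all of the plasmacytoid sum came from Bst2 (215 and 161 against 402 and 191 CPM), and no other gene of that list exceeded 2.38 CPM.

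NK cell markers were sparse. The list of 7, which includes Ncr1 and Eomes, summed to 4.00 and 3.44 CPM under saline and 7.59 and 4.44 under ADC/cmLumiOpto, and only those 2 could be tested. Klrb1c, which encodes the NK1.1 receptor, had 2 and 0 counts against 15 and 2, Klre1 had 2 and 0 against 21 and 6, S1pr5 had at most 3, and Klra4 and Klra8 were listed at 0 in all 4 samples. Klra4 and Klra8 belong to the cluster whose gene content differs between mouse strains, so their 0 counts are not read as a sign of few NK cells. Mast cell markers, whose cells also store granule proteases, summed to at most 5.50 CPM.

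Other marker lists differed between the groups to unlike degrees, and their counts stand beside the 11.0% of all tested genes that were higher and the 12.2% that were lower. Pan-leukocyte markers (5 of 6 higher at an unadjusted p under 0.05) summed to 1013 and 625 CPM against 1251 and 1676, and lung epithelial markers (6 of 6 higher) to 2476 and 361 against 11050 and 7224. Neutrophil markers (5 of 6 higher) summed to between 515 and 1129 CPM in 3 samples and to 7883 in treated replicate 2, the sample in which Klra17 and Hcst were highest. Carcinoma markers of the 4T1 line (0 of 5 tested higher, 1 lower) summed to between 2378 and 2910 CPM. That list holds keratins and epithelial adhesion genes (Krt8, Krt18, Krt14, Krt5, Epcam and Cdh1), which lung epithelium could also supply. Its sum is therefore not a measure of tumor content. Macrophage markers (0 of 6 higher, 1 lower) summed to between 998 and 1283 CPM with a treated over saline ratio of 1.02, and B cell markers (1 of 4 tested higher) had a ratio of 1.46. Of the endothelial markers 2 of 5 were higher, and of the plasmacytoid dendritic cell markers 1 of 4 tested. The part of these differences in the values of the 10 genes was not tested.

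**Figure D5:**
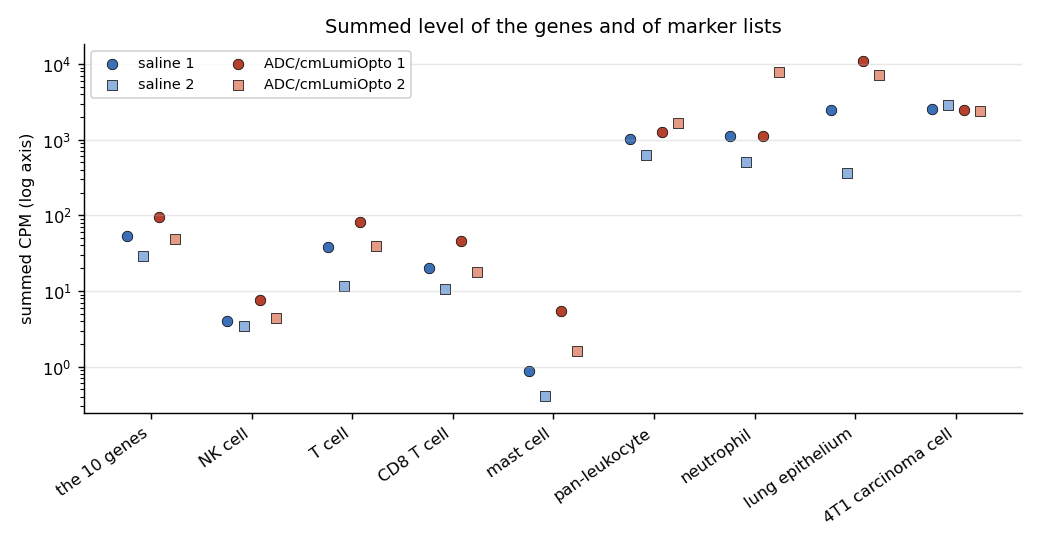
Summed CPM (log axis) of the 10 genes and of marker lists in each sample, with saline in blue, ADC/cmLumiOpto in red, circles for replicate 1 and squares for replicate 2. The 10 genes and the NK, T cell, CD8, mast cell and lung epithelium lists are highest in treated replicate 1 and lowest in saline replicate 2. The B cell, CD4 and plasmacytoid dendritic cell lists, which are not plotted, share that pattern. Neutrophil and pan-leukocyte markers peak in treated replicate 2.

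Relative to the summed T cell markers, the genes spread differently. Gzma was at 2.97 and 6.40 per 100 CPM of T cell markers under saline and 14.4 and 10.7 under ADC/cmLumiOpto, so that the groups stayed separate. Prf1 was at 31.2 and 105 against 10.1 and 15.5, without overlap and in the opposite direction. Klrk1, whose log2 fold change was above 0, was also lower without overlap on this scale, at 10.1 and 15.7 against 9.34 and 4.93. The other 7 genes overlapped between the groups, and Gzmb (6.77 and 36.6 against 11.5 and 17.9), Gzmk (2.31 and 1.16 against 2.02 and 2.46) and Klrd1 (4.13 and 8.72 against 6.48 and 5.91) thus lost the separation they had in CPM. Relative to pan-leukocyte markers and to the NK list, Gzma and Prf1 kept their separation, and Klrk1 overlapped. Per 100 CPM of the NK list, Klrd1 was also separate, at 39.1 and 29.4 against 69.4 and 52.7. Eomes was lower without overlap on that scale, at 65.6 and 94.1 against 58.2 and 64.8. The NK list includes Eomes and Ncr1, so its ratios divide in part by the genes described. Nkg7 was at 20.5 and 20.9 against 22.5 and 16.0 per 100 CPM of T cell markers, and at 0.765 and 0.388 against 1.46 and 0.378 per 100 CPM of pan-leukocyte markers. These ratios divide by lists that themselves differed between the groups, and they are descriptions of 4 samples. The T cell sum was 2.44 times as high in the treated samples as in saline. The share of all tested genes that separate on these scales was not computed, and nothing is read from the separations.

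The genes most like the average of the 10 were sought by the root mean square difference of centered log2 CPM over the 4 samples. Among the closest were Gpr162 (0.0184), Cd86 (0.0397), Id3 (0.0440) and Cfap126 (0.0508), followed by Fras1, Clec4n, Cd96, Meox2 and Cyp4f39 (0.0717). Among the 10 genes themselves, Gzmk (0.164) and Klrd1 (0.198) lay closest to the average, and Gzma (0.798) and Prf1 (0.864) farthest from it. The list holds the T and NK cell receptor gene Cd96, beside the costimulatory ligand gene Cd86 of antigen-presenting cells, and with 4 samples many profiles are alike.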

How the data were processed

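Messenger RNA of 4 samples was sequenced on an Illumina HiSeq instrument. The table deposited by the authors holds raw counts, whole numbers of reads for each gene with no normalization, and a gene length in bases, for 56748 genes. The methods state alignment with HISAT2 to GRCm38, and the submitters' processing notes also name HISAT, TopHat2 and mm39. The counting program and any use of strand are not given in the sources used here. Of 52073 identifiers shared with GENCODE M21 (GRCm38), 1472 had the same start and end and 50383 the same length of span.

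The analysis used edgeR 4.0.16 (R 4.3.3). Low genes were removed by filterByExpr (minimum count 10, minimum total 15), which left 15320, normalized by TMM, and compared by glmQLFit and glmQLFTest between 2 saline and 2 ADC/cmLumiOpto samples, with Benjamini-Hochberg adjustment over all tested genes and a prior count of 0.125. The standard error is the log2 fold change divided by the square root of F. TPM values use the deposited gene lengths. The 10 genes and all lists were chosen with earlier results of these data known. Named genes were the 10, their direct partners, the 3 genes with the smallest p of each pathway list, and the 10 genes most alike to the mean centered log2 CPM (pseudocount 0.5). The other granzymes, Runx3 and single marker genes were named after their values had been seen. On simulated data with 13850 genes, 200 of them with a log2 change of 2, edgeR's main test recovered 99% with 7 unchanged genes called, the exact test 99% with 8 and DESeq2 97.5% with 9. The simulation left out genes of low mean count and gave all genes a fixed spread between replicates, not estimated from these samples. The recovered shares therefore check the code and do not give the power in these data.

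Alternatives were library size alone, upper-quartile normalization, DESeq2 1.42.0, edgeR's exact test, dropping the filter (1 count in total), requiring 10 counts in every sample, a replicate block, removal of a gene length trend (lowess span 0.3), a prior count of 2, and each sample left out in turn. Vamp7, Raet1a, Raet1b, Raet1c, H60a and H2-L were not analysed here. Of the genes that the rule names, 2 are not reported here.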

Additional observations from a re-analysis of the deposited data

How the results depend on the processing

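In saline replicate 2, Gzmk and Ncr1 were under the floor of 3 counts. With a sample left out, the log2 fold change ranged from 0.58 to 3.20 for Gzmk and from -0.058 to 3.77 for Ncr1. Ccl5, with at least 44 counts in each sample, ranged from 0.072 to 2.85. With 1 sample left out, the lone sample of its group was assumed to vary like the other group. All 10 genes kept their direction under every normalization, filter, test, length correction and prior count under which they had a value. Gzmk and Ncr1 had none under the filter of 10 counts in every sample, which removed them. Klrk1, Ncr1 and Eomes changed sign with a sample left out. The cause of the changes below was not tested, apart from the fewer samples or the other set of genes that a setting implies.

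Across the table, the 0 genes at an adjusted p under 0.05 became 1332 with DESeq2, 1170 with the exact test and 2259 without the filter, and between 0 and 218 with a sample left out. The unadjusted higher count was 2580 without the filter and between 856 and 1712 with a sample left out, and the lower count between 831 and 2020. For the pathway genes, the 0 at an adjusted p under 0.05 became 19 with DESeq2, 12 with the exact test and 37 without the filter (0 to 6 with a sample left out). Without the filter, the unadjusted higher counts were 57 for all lists, 9 for granule genes, 11 for NK receptors (2 lower), 14 for adaptors and factors and 18 for cytokines. With the length trend removed, 3 pathway genes were lower, 2 NK receptors higher and 2 lower, 0 adaptors and factors lower, 0 cytokines lower and 1 ligand lower. Library size alone and upper-quartile normalization each left 1 ligand lower. With a sample left out, the higher counts were 13 to 52 for all lists, 4 to 8 for granule genes, 0 to 10 for NK receptors, 3 to 14 for adaptors and factors, 2 to 15 for cytokines and 3 to 8 for ligands, and the lower counts 1 to 9, 0 to 1, 0 to 1, 0 to 4, 0 to 2 and 1 to 2 in the same order.

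The median log2 fold change of the 10 genes was between 0.53 and 2.11 with a sample left out, the latter without saline replicate 1. Srgn turned to 0.019 with upper-quartile normalization. With a sample left out, Raet1e ranged from -0.24 to 0.93 (-0.061 without saline replicate 1), Srgn from -0.58 to 0.32 (0.26 without saline replicate 2), Ctsc from -0.098 to 0.98, Calr from -0.36 to 0.49, Il15ra from -0.053 to 0.33 and Il2rb from -0.33 to 0.60 (-0.21 without saline replicate 2). Of the other values of single genes, 608 were counted as unchanged, 57 moved past the threshold and 10 moved by more than the spread. For the 10 genes, unchanged means a move of less than the standard error, so the sign changes of Ncr1 and Eomes are among the 608. For the other genes it means the same direction and side of the threshold.

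Replicate numbers were shared between the groups only as numbers of separate mice, and the correlation of the replicate differences between the groups was 0.0985 across 15320 genes. With the replicate number as a block, 607 genes of the table and 14 pathway genes passed an adjusted p of 0.05, and the unadjusted higher counts were 46 for all lists, 8 for granule genes, 13 for adaptors and factors and 14 for cytokines.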

Other observations

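Several genes of the pathway lists were too low to test, and those given here were chosen after their values were seen. The chemokine gene Xcl1, made by NK and CD8 T cells, had 8 and 1 counts under saline and 37 and 3 under ADC/cmLumiOpto. Il12b, which encodes a chain of interleukin 12, had 1 and 0 counts against 21 and 4. Klrb1f, a lectin-like receptor gene, had 4 and 0 counts against 15 and 10. In all 3 genes treated replicate 1 was highest, as in Gzma, Nkg7 and Klrd1, and a fold change was not computed.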
